A study of Mus musculus with 20 samples.

Results

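The 9 genes described here are transcription factors and receptors of the oligodendrocyte lineage: Olig1, Olig2, Sox8, Sox10, Nkx2-2, Nkx6-2, Pdgfra, Cspg4 and Gpr17. They were chosen by gene symbol, and all 9 were found among the 37561 genes that the deposited tables share. Transcripts had been measured by RNA-seq in 20 libraries of spherical neural masses (SNMs), rounded neural cultures made from mouse ESD3 (D3) embryonic stem cells of strain 129s2/SvPas. The 10 control libraries came from cells with an shRNA against luciferase and the 10 HPRT knockdown libraries from cells with an shRNA against HPRT, the purine salvage enzyme whose loss causes Lesch-Nyhan disease. Both lines were differentiated toward dopaminergic neurons with sonic hedgehog, FGF8 and ascorbic acid, and RNA was taken on each of days 0 to 4 and on the even days from 6 to 14.

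Each line had 1 library per day. Per the methods, RNA was pooled within each time point before sequencing, so a day had no replicate. The labels speak of replicated cultures behind each RNA, and whether the days of a line shared a culture is not stated in the sources used here. Both lines carried a viral hairpin vector and had been selected with puromycin, and both had been kept on mouse embryo fibroblast feeders before differentiation. The labels call the vector a retrovirus and the methods a lentivirus made against human HPRT. Each line was made once here, so a difference between the lines cannot be told apart from a difference between 2 transduced populations. Errors are standard deviations (SD) over the 9 days tested, and day 6 was left out of every test because the study left it out as discrepant. The question was how the 9 genes differed between the lines, and how that difference changed over the course.

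Oligodendrocytes make the myelin of the central nervous system. They arise from ventral neural progenitors in which sonic hedgehog induces the basic helix-loop-helix factor Olig2, and they pass through a dividing precursor stage marked by the receptor tyrosine kinase Pdgfra and the proteoglycan Cspg4 (NG2). The HMG-box factors Sox8 and Sox10 and the homeodomain factor Nkx2-2 act as precursors differentiate, and the receptor Gpr17 marks a transient stage between precursor and myelinating cell. Most of these genes are not limited to the lineage: Olig2 is also used by motor neuron progenitors, Nkx2-2 and Nkx6-2 by ventral interneuron progenitors, Sox10 by neural crest, Pdgfra by mesenchyme and Cspg4 by pericytes.

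The targeted gene was examined before the others. Hprt (Gene ID 15452) reached 400.2 to 681 normalised reads per kilobase of exon in the control libraries and 15.4 to 105 in the HPRT knockdown libraries. No knockdown library overlapped the control range. The mean log2 ratio of HPRT knockdown over control was -4.00 ± 0.89 (n = 9 days, limma adjusted p = 1.40e-05), or 6.24% of control, and Hprt was lower on 9 of 9 days. The size factors of the libraries, which follow their depth, ranged from 0.823 to 1.60 of a typical library.

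The deposited tables hold log2 values of a pair of libraries centred on their mean, so that a table gives a ratio but no level. For 6 of the 9 genes the level could be recovered from the pattern of rounding and whole bases, and it is given as normalised reads per kilobase of annotated exon. These 6 genes had between 38 reads (Cspg4, control, day 8, exact Poisson 95% interval 26.9 to 52.2) and 11421 reads (Olig1, HPRT knockdown, day 1) in a library. The counting error of a level was therefore at most 16.2%, and it covers counting error only. The levels of Nkx2-2, Nkx6-2 and Gpr17 could not be recovered, and these are given relative to the control library of day 0. The typical normalised count was at least 256 for Gpr17, as for the 6 recovered genes, and between 16 and 256 for Nkx2-2 and Nkx6-2. That count was taken over both lines. In the control line alone the median was 194 normalised reads for Sox8 and 141 for Cspg4, against 905 and 685 in the knockdown line.

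Upstream sequences are shown for Sox8 and Nkx2-2, the members whose levels did not overlap between the lines, and for Olig2, the factor that defines the progenitor domain. They are the 250 bases before the RefSeq start of each gene in the GRCm38.p6 build, written 5′ to 3′ on the strand of the gene. Capitals mark E-boxes, the CANNTG letters bound by basic helix-loop-helix factors such as Olig1 and Olig2. Sox8 lies at chr17:25570687-25570936 (minus strand), Nkx2-2 at chr2:147186403-147186652 (minus strand) and Olig2 at chr16:91225300-91225549 (plus strand).
Sox8: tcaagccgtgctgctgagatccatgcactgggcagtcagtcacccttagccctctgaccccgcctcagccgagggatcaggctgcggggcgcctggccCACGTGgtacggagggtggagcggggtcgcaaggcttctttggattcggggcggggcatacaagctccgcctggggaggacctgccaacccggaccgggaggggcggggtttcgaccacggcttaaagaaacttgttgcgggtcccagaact
Nkx2-2: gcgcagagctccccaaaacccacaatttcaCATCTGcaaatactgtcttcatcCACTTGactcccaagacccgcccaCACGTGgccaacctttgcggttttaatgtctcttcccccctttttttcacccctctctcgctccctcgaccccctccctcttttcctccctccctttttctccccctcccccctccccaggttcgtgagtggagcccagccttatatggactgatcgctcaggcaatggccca
Olig2: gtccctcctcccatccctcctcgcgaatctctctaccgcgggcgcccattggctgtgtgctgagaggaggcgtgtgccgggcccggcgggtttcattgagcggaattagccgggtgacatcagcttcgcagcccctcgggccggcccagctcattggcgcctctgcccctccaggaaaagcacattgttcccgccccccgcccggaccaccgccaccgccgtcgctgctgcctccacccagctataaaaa

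The Sox8 window held 1 E-box, the Nkx2-2 window 3 and the Olig2 window 0. Of 32851 RefSeq promoter windows of this length 66.2% held at least 1. Neither a Sox motif (ACAAAG or its reverse complement CTTTGT, in 16.5% of windows) nor a Gli motif (GACCACCC or GGGTGGTC, in 0.703% of windows) was found in the windows of Sox8, Nkx2-2 or Olig2, with both strands searched. Windows were at hand for 6 of the 9 genes, and those of Nkx6-2 and Pdgfra held 1 E-box each and that of Cspg4 held 0. A match of letters is a description and not a bound site.

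The genes lie on 8 chromosomes in the NCBIM37 (mm9) annotation. Olig2 (Gene ID 50913, chromosome 16, 91225795 to 91228922, 2 exons) and Olig1 (50914, chromosome 16, 91270014 to 91272184, 1 exon) are neighbours on the plus strand with 41091 bases between them. Sox8 (20681) occupies chromosome 17, 25702837 to 25707631, and Sox10 (20665) chromosome 15, 78985343 to 78994920. Nkx2-2 (18088) occupies chromosome 2, 147003282 to 147019979, and Nkx6-2 (14912) chromosome 7, 146765276 to 146768696. Pdgfra (18595) occupies chromosome 5, 75548316 to 75594229, Cspg4 (121021) chromosome 9, 56712911 to 56747677, and Gpr17 (574402) chromosome 18, 32102651 to 32109290. Of the exonic 50-base sequences of Nkx6-2, 10.4% also belong to Inpp5a, and of those of Gpr17, 1.87% also belong to Lims2. The other 7 genes shared none with another annotated gene.

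Over the course 8 of the 9 genes were higher in the HPRT knockdown line by limma with Benjamini-Hochberg adjustment over 13608 genes, and 0 were lower. Of all genes tested, 26.2% were called higher and 26.3% lower. Sox10 was the gene not called. The median of the mean log2 ratios was 2.51 over the 9 genes and 0.0056 over all genes tested. The ratio was above 0 on each of the 9 days for 6 genes (Olig1, Olig2, Sox8, Nkx2-2, Nkx6-2 and Cspg4), against 14.1% of all genes. In bulk RNA, more cells of a type and more RNA per cell cannot be told apart.

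**Figure D1:**
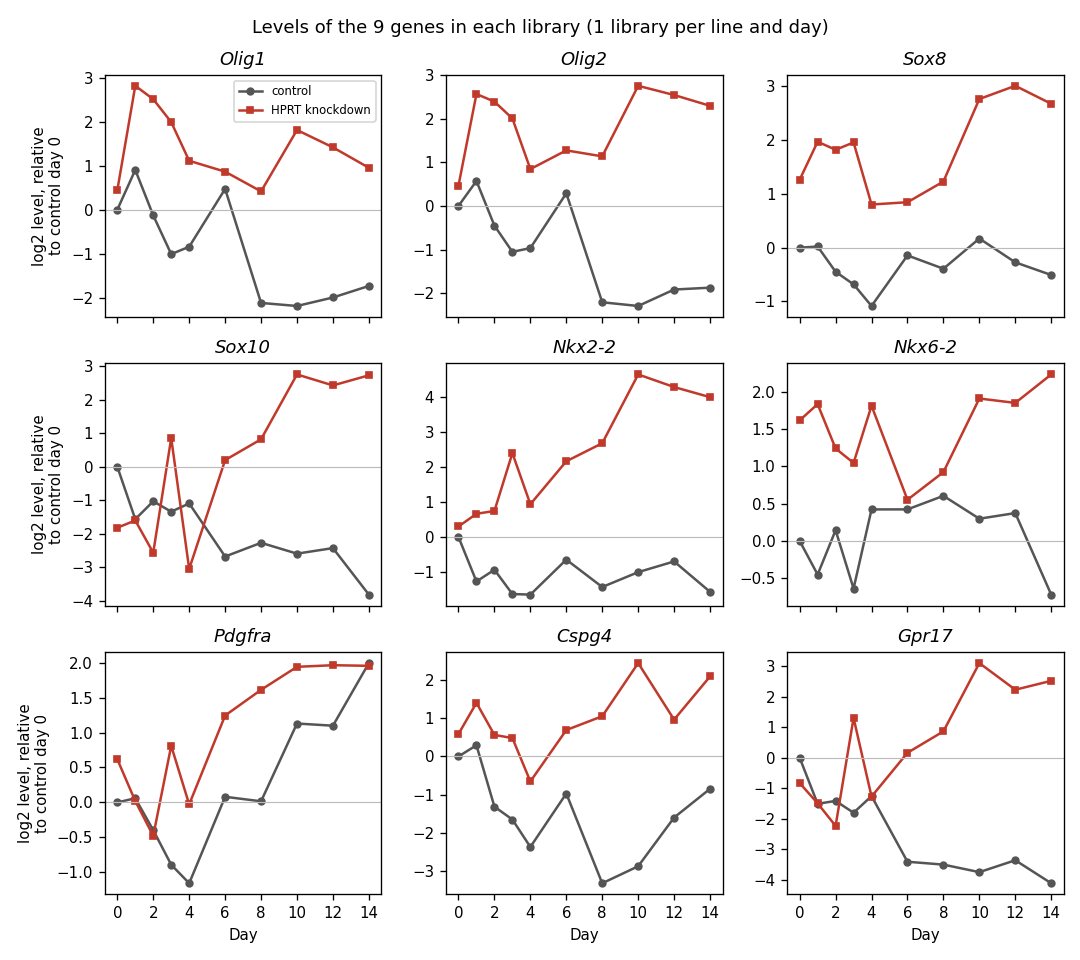
Level of each of the 9 genes by day of differentiation, as log2 relative to the control library of day 0, in the control line (grey circles) and the HPRT knockdown line (red squares); each point is 1 library. Sox8 and Nkx2-2 do not overlap between the lines, Sox10 and Gpr17 of the knockdown line are at least 2-fold above the control only on day 3 and from day 6 on, and Pdgfra of the lines nearly meets on days 1, 2 and 14.

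Olig1 and Olig2 are the basic helix-loop-helix factors of the lineage. Olig1 lay between 161 and 1371 normalised reads per kilobase in the 10 control libraries, with a median of 386, and between 978 and 5157 in the HPRT knockdown libraries, with a median of 1770. The control was highest on day 1 and lowest on day 10, and 7 of the 10 knockdown libraries lay above every control library. Olig2 lay between 62.0 and 451 in the control, with a median of 151, and between 419.7 and 2046 in the knockdown, with a median of 1353. Of the knockdown libraries 9 lay above every control library, day 0 being the exception. The share of all genes with 7 or 9 such libraries was not counted, here or for the genes below.

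The log2 ratio of Olig2 was 0.48, 1.97, 2.85, 3.06 and 1.81 on days 0 to 4, 0.96 on day 6, and 3.36, 5.05, 4.45 and 4.17 on days 8 to 14. The lines thus started within 1.40-fold of each other and were farthest apart on day 10, at 33.1-fold. The mean was 3.02 ± 1.44 (n = 9 days, limma adjusted p = 0.000426). The ratio of Olig1 was 0.46, 1.89, 2.65, 3.00 and 1.96 on days 0 to 4, 0.37 on day 6, and 2.55, 4.00, 3.40 and 2.69 on days 8 to 14, with a mean of 2.51 ± 1.01 (limma adjusted p = 0.000196).

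Both genes moved within the control line as well. By limma the control level fell by 0.18 log2 units per day for Olig1 (adjusted p = 0.00589) and by 0.17 for Olig2 (adjusted p = 0.00502). On day 14 the control level was 0.301 times that of day 0 for Olig1 and 0.273 times for Olig2. In the knockdown line neither slope passed the test, at -0.05 per day for Olig1 (adjusted p = 0.514) and 0.06 for Olig2 (adjusted p = 0.418). The difference itself, the slope of the ratio on day, was called for Olig2 at 0.24 per day (adjusted p = 0.0198) and not for Olig1 at 0.13 (adjusted p = 0.111). Without day 12 the slope of Olig2 kept its size at 0.24 but not the call (adjusted p = 0.0614).

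Sox8 and Sox10 are related HMG-box factors, of which Sox10 drives the myelin genes directly. Sox8 lay between 36.9 and 88.1 normalised reads per kilobase in the control, with a median of 62.2, and between 137 and 631 in the knockdown, with a median of 290.4. All 10 knockdown libraries lay above all 10 control libraries, as 1.36% of all genes did. The ratio of Sox8 was 1.28, 1.93, 2.28, 2.64 and 1.89 on days 0 to 4, 0.96 on day 6, and 1.64, 2.60, 3.28 and 3.19 on days 8 to 14, and its mean of 2.30 ± 0.68 had the lowest limma adjusted p of the 9 genes (5.25e-05). Neither line's slope passed the test for Sox8, at 0.01 per day in the control and 0.10 in the knockdown (adjusted p = 0.685 and 0.117).

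Sox10 spanned a wider range than Sox8 in both lines. It lay between 45.3 and 639 normalised reads per kilobase in the control, with a median of 174, and between 77.0 and 4318 in the knockdown, with a median of 931. The control was highest on day 0 and lowest on day 14, a span of 14.1-fold, and the knockdown was lowest on day 4 and highest on day 10, a span of 56.1-fold. The ratio was -1.81, -0.06, -1.53, 2.20 and -1.96 on days 0 to 4, 2.85 on day 6, and 3.11, 5.36, 4.85 and 6.56 on days 8 to 14. The sign was thus negative on 4 of the 5 days up to day 4 and positive on all 5 days after it. Over the 9 days the mean of 1.86 ± 3.32 was not called (limma adjusted p = 0.139), and the slope of the ratio was, at 0.59 per day (adjusted p = 0.00813).

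That slope held a change in each line. Sox10 fell by 0.20 log2 units per day in the control (limma adjusted p = 0.00133) and rose by 0.39 in the knockdown (adjusted p = 0.0226). The knockdown slope was not called without day 2, day 12 or day 14 (adjusted p between 0.0515 and 0.0915), while the slope of the ratio was called with any of the 9 days left out.

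Nkx2-2 and Nkx6-2 are homeodomain repressors that pattern the ventral neural tube. Nkx2-2 had the highest mean ratio of the 9 genes, 3.42 ± 1.88 (n = 9 days, limma adjusted p = 0.000872). Relative to the control of day 0, its control level lay between 0.321 and 1, with a median of 0.458. Its knockdown level lay between 1.23 and 24.8, with a median of 4.85. All 10 knockdown libraries thus lay above all 10 control libraries, as for 1.36% of all genes. The ratio was 0.31, 1.90, 1.68, 4.01 and 2.58 on days 0 to 4, 2.77 on day 6, and 4.11, 5.64, 4.96 and 5.55 on days 8 to 14. Nkx2-2 rose in the knockdown line by 0.30 log2 units per day (adjusted p = 0.00962), and the control slope of -0.01 was not called (adjusted p = 0.760). The slope of the ratio was 0.33 per day (adjusted p = 0.00957) and was called with any of the 9 days left out.

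Nkx6-2 was higher in the knockdown by a ratio with no called trend over the days. Relative to the control of day 0, its control level lay between 0.607 and 1.52 and its knockdown level between 1.47 and 4.70, and 9 of 10 knockdown libraries lay above every control library. The ratio was 1.63, 2.26, 1.11, 1.68 and 1.39 on days 0 to 4, 0.10 on day 6, and 0.34, 1.62, 1.47 and 2.96 on days 8 to 14. The mean was 1.61 ± 0.72 (n = 9 days, limma adjusted p = 0.000352), and the slope of 0.03 per day was not called (adjusted p = 0.696). Reads from the sequence that Nkx6-2 shares with Inpp5a could have been counted for either gene.

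Pdgfra, the receptor for the mitogen Pdgfa, had the lowest mean ratio of the 9 genes. It lay between 62.7 and 557 normalised reads per kilobase in the control, with a median of 143, and between 100.4 and 545 in the knockdown, with a median of 288. The lines overlapped throughout this range, and 0 knockdown libraries lay above every control library. The ratio was 0.63, -0.06, -0.07, 1.70 and 1.13 on days 0 to 4, 1.14 on day 6, and 1.61, 0.82, 0.86 and -0.03 on days 8 to 14. The mean of 0.73 ± 0.69 (n = 9 days, higher on 6) was called by limma (adjusted p = 0.0150) but not by the exact sign-flip permutation test (two-sided, adjusted p = 0.0600). With the libraries taken as 2 groups rather than as pairs of a day it was not called either (limma adjusted p = 0.188).

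Pdgfra was the only one of the 9 genes that rose with day in both lines. The slope was 0.16 log2 units per day in the control (limma adjusted p = 0.0155) and 0.16 in the knockdown (adjusted p = 0.0210), and the ratio had a slope of 0.0040 that was not called (adjusted p = 0.966). On day 14 the control stood at 3.98 times its level of day 0, and the knockdown at 2.53 times its own. Without day 14 neither of the rises was called (adjusted p = 0.0939 and 0.0766), and without day 12 the knockdown rise was not called (adjusted p = 0.0671). On a log2(day + 1) scale neither was called (adjusted p = 0.141 in the control and 0.120 in the knockdown).

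Cspg4, the NG2 proteoglycan of precursors and pericytes, lay between 4.82 and 58.5 normalised reads per kilobase in the control, with a median of 17.5, and between 30.4 and 259 in the knockdown, with a median of 85.1. Of the knockdown libraries 9 lay above every control library, day 4 being the exception. The ratio was 0.60, 1.08, 1.88, 2.13 and 1.71 on days 0 to 4, 1.63 on day 6, and 4.38, 5.31, 2.55 and 2.94 on days 8 to 14. The mean was 2.51 ± 1.52 (n = 9 days, limma adjusted p = 0.00143). The slope of the ratio, 0.20 per day, was not called (adjusted p = 0.0911).

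Gpr17, a receptor of the transient stage before myelination, followed Sox10 with r = 0.957 over the 10 control libraries and r = 0.970 over the 10 knockdown libraries. Relative to the control of day 0, its control level fell to 0.0575 on day 14, with a median of 0.192, and its knockdown level lay between 0.212 on day 2 and 8.62 on day 10, with a median of 1.47. The ratio was -0.82, -0.01, -0.81, 3.11 and -0.01 on days 0 to 4, 3.55 on day 6, and 4.39, 6.87, 5.59 and 6.65 on days 8 to 14. The lines were within 1.76-fold of each other on 4 of the 5 days up to day 4 and 117-fold apart on day 10. By limma Gpr17 fell by 0.25 log2 units per day in the control (adjusted p = 0.00101) and rose by 0.32 in the knockdown (adjusted p = 0.0257), and the slope of the ratio was 0.58 (adjusted p = 0.00726). The knockdown rise was not called without day 2, day 12 or day 14 (adjusted p between 0.0514 and 0.0922).

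The mean ratio of Gpr17, 2.77 ± 3.24 (higher on 5 of 9 days), was called by limma (adjusted p = 0.0344). Without day 3, 8, 10, 12 or 14 it lay between 2.26 and 2.73 and was not called (adjusted p between 0.0656 and 0.0776, with 1 day fewer in the fit), and by the exact sign-flip permutation test the adjusted p was 0.105. The slope of the ratio was called with any of the 9 days left out.

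**Figure D2:**
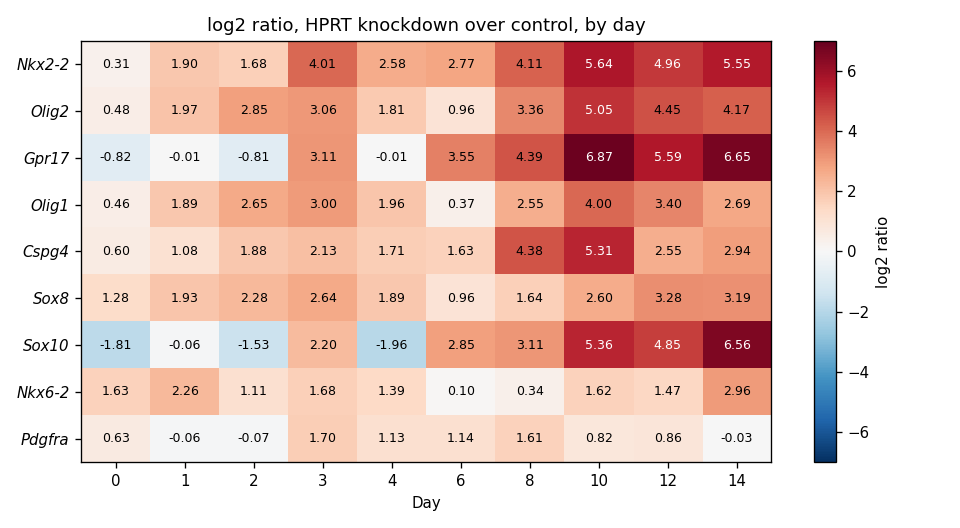
Log2 ratio of HPRT knockdown over control for the 9 genes (rows, in the order of their mean ratio) on the 10 days (columns); each cell is the ratio of 1 pair of libraries, red higher and blue lower in the knockdown. The cells of Sox10 are negative on days 0, 1, 2 and 4 and between 2.20 and 6.56 on the other days.

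Ordered by the mean ratio, the genes were Nkx2-2, Olig2, Gpr17, Olig1, Cspg4, Sox8, Sox10, Nkx6-2 and Pdgfra. None of the 8 neighbouring pairs differed beyond their spread over days by the exact sign-flip permutation test (two-sided, smallest adjusted p = 0.609, where 9 days allow a raw p of 0.00390625). At an unadjusted threshold of 0.05 the number was also 0. The closest to the threshold was Nkx6-2 against Pdgfra, with a mean difference of 0.87 ± 1.25 (n = 9 days, exact raw p = 0.0781). The order of neighbours is therefore not resolved.

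**Figure D3:**
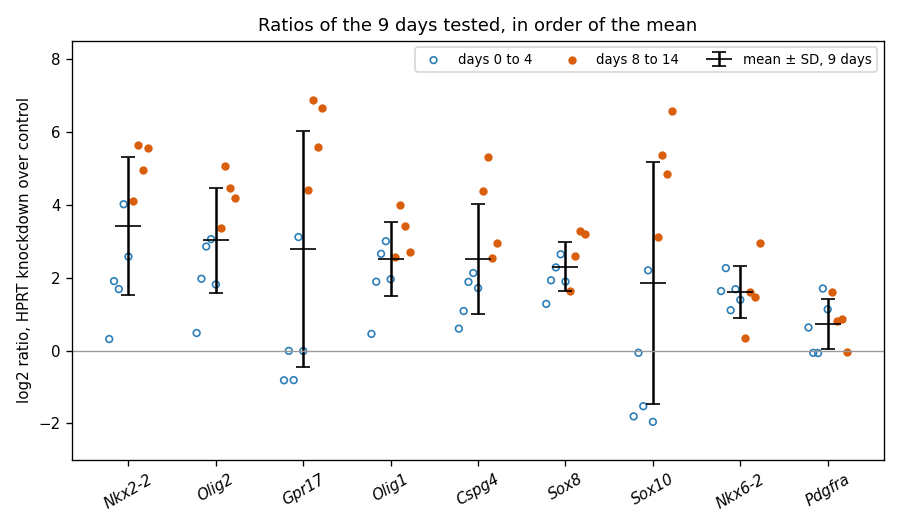
Log2 ratio of HPRT knockdown over control on the 9 days tested for each gene, in order of the mean; open blue circles are days 0 to 4, filled orange circles days 8 to 14, and bars the mean ± SD over 9 days. For Olig2, Sox10, Nkx2-2, Cspg4 and Gpr17 every late point lies above every early point, and the SD of Sox10 and Gpr17 exceeds 3.

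The ratio of knockdown over control rose over the course for 4 of the 9 genes. For Sox10 and Gpr17 it rose from below 0, at -1.81 and -0.82 on day 0. The slope of the ratio on day was called upward for Olig2, Sox10, Nkx2-2 and Gpr17, against 7.43% of all genes upward and 6.61% downward. Within the control line 1 gene rose (Pdgfra) and 4 fell (Olig1, Olig2, Sox10 and Gpr17), against 19.7% and 23.9% of all genes. Within the knockdown line 4 rose (Sox10, Nkx2-2, Pdgfra and Gpr17), against 7.6% of all genes, and 0 fell, against 5.53%.

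Without a straight line, the mean ratio of days 8 to 14 minus that of days 0 to 4 was called for the same 4 genes as the slope, against 2.65% of all genes upward. It was 5.60 for Sox10 (limma adjusted p = 0.0224), 5.59 for Gpr17 (adjusted p = 0.0180), 2.97 for Nkx2-2 (adjusted p = 0.0402) and 2.23 for Olig2 (adjusted p = 0.0480). Cspg4 stood next at 2.31 (adjusted p = 0.0507). With 1 day left out, the calls of Olig2 and Nkx2-2 were lost for 7 of the 9 days (adjusted p up to 0.131), that of Sox10 for 4 (days 1, 10, 12 and 14) and that of Gpr17 for 3 (days 10, 12 and 14). The late ratios all lay above the early ratios for these 5 genes, as for 7.67% of all genes.

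Day by day, the number of the 9 genes at least 2-fold higher in the knockdown was 2 on day 0 and 6 on days 1 and 2. All 9 were so on day 3, while 7 were on day 4, 5 on day 6 and 8 from day 8 onward. For all genes the share at least 2-fold higher was 12.5% (day 0), 9.95% (day 3), 4.49% (day 6) and 9.41% (day 14). The genes at least 2-fold higher on day 0 were Sox8 and Nkx6-2. Sox10 was at least 2-fold lower on days 0, 2 and 4, and 6.01% of all genes were at least 2-fold lower on day 4.

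Day 3 of the knockdown line stood apart from its neighbours for a part of the genes. From day 2 to day 3 the knockdown level of Gpr17 went up 11.7-fold, that of Sox10 10.8-fold, that of Nkx2-2 3.13-fold and that of Pdgfra 2.44-fold, against 6.07% of all genes at least 2-fold up. From day 3 to day 4 Sox10 went down 15.1-fold, Gpr17 5.99-fold, Nkx2-2 2.74-fold, Olig2 2.23-fold, Sox8 2.23-fold and Cspg4 2.19-fold, against 4.73% of all genes at least 2-fold down. In the control line no step between days 2, 3 and 4 reached 2-fold for any of the 9 genes. Each of these values rests on 1 library, and this library had a size factor of 0.916 beside 1.60 for the control of that day. The median ratio of 14 myelin genes was 3.36 on day 3, between -0.87 on day 2 and -0.20 on day 4. Without day 3 the mean ratio of Gpr17 was 2.73 and not called (limma adjusted p = 0.0656), and the other mean ratios and the 4 slopes of the ratio kept their calls. The slope of the ratio of Sox8 was then called at 0.11 per day (adjusted p = 0.0486), beside 0.10 with all 9 days (adjusted p = 0.0650). The part of that library in the day 3 values was not tested.

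Other single steps were shared by several of the genes. In the control line Olig1, Olig2, Pdgfra and Cspg4 were between 2.36-fold and 2.63-fold higher on day 6 than on day 4, against 9.74% of all genes at least 2-fold up. From day 6 to day 8 Olig1 went down 5.92-fold, Olig2 5.55-fold and Cspg4 4.99-fold, against 6.76% of all genes at least 2-fold down, while Pdgfra stayed within 1.03-fold. Over the step from day 4 to day 6 of the control Sox10 went down 3.00-fold and Gpr17 4.46-fold. The low ratios of Olig1 and Olig2 on day 6 thus went with high control levels on that day. In the knockdown line Olig1 went up 5.23-fold and Olig2 4.32-fold from day 0 to day 1, against 6.11% of all genes at least 2-fold up. From day 8 to day 10 of the knockdown line 7 of the 9 genes went up at least 2-fold, between 2.61-fold for Cspg4 and 4.71-fold for Gpr17, against 4.6% of all genes. Nkx6-2 went up 1.97-fold and Pdgfra 1.25-fold over the same step.

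Other regulators of the lineage moved in both directions. Of 21 regulators that passed the level filter 7 were higher and 4 lower in the knockdown by limma, with a median mean ratio of 0.16. Of all genes tested 26.2% were called higher and 26.3% lower, and these shares also stand beside the counts of the lists below. The counts of the lists were not tested against these shares. The highest were Zfp488, a zinc finger repressor that acts with Olig2, at 3.79 ± 3.85 (adjusted p = 0.0192), Sox6 at 2.74 ± 1.42 (adjusted p = 0.000644) and Zeb2 at 1.08 ± 1.24 (adjusted p = 0.0325). The lowest were Sox17 at -1.89 ± 2.40 (adjusted p = 0.0481), the Notch effector Hes5 at -0.99 ± 1.02 (adjusted p = 0.0219) and Yy1 at -0.36 ± 0.20 (adjusted p = 0.00301). Sox17, also in the endoderm list below, had ratios from -4.39 on day 2 to 2.22 on day 14 and was higher on 2 of 9 days.

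Of 28 surface and secreted genes of oligodendrocyte precursors 20 were higher and 0 lower, with a median mean ratio of 1.91, and the ratio rose with day for 15 and fell for 1. Enpp6, a marker of newly formed oligodendrocytes, was at 3.87 ± 4.05 (limma adjusted p = 0.0218) and higher on 6 of 9 days. Bcas1 was at 3.75 ± 3.59 (adjusted p = 0.0148) and the precursor marker Lhfpl3 at 2.97 ± 2.03 (adjusted p = 0.00271). Ptprz1, a receptor phosphatase of precursors and radial glia, was at 1.805 ± 0.34 over the 9 days tested (adjusted p = 1.13e-05). The slope of its ratio, 0.0063 per day, was not called (limma adjusted p = 0.884). On day 6, left out of the tests, its ratio was 0.22.

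Of 16 ligands and signals of the lineage 7 were higher and 2 lower. Shh, which induces Olig2 and was also added to the cultures as protein, was at 3.59 ± 1.68 (limma adjusted p = 0.000392) and higher on 9 of 9 days. Unlike that of Olig2, its ratio was larger early than late. It was 5.49, 3.59, 4.44, 3.61 and 5.83 on days 0 to 4, and 4.51, 1.47, 1.07 and 2.31 on days 8 to 14. The slope of -0.24 per day was not called (limma adjusted p = 0.0575). Pdgfa, the ligand of Pdgfra, was at 1.03 ± 0.61 (adjusted p = 0.00151) and Pdgfc at 0.72 ± 0.42 (adjusted p = 0.00163), each higher on 9 of 9 days. Pdgfb, at -0.46 ± 1.06, was not called (adjusted p = 0.247). Of the Notch ligands in the list, Jag2 at -1.13 ± 0.54 (adjusted p = 0.000507) and Dll1 at -0.95 ± 0.72 (adjusted p = 0.00525) were lower on 9 of 9 days. Jag1, at 0.07 ± 0.41, was not called (limma adjusted p = 0.665).

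Of 14 myelin genes that passed the filter 6 were higher and 0 lower, and the ratio rose with day for 10. Fa2h, a hydroxylase of myelin lipids, was at 3.19 ± 4.01 (limma adjusted p = 0.0463), Trf at 2.73 ± 2.75 (adjusted p = 0.0187) and Mal at 2.28 ± 2.11 (adjusted p = 0.0127). The defining markers Mbp at 2.19 ± 3.60 and Mag at 2.79 ± 4.61 were not called as means (adjusted p = 0.112 and 0.113), each higher on 5 of 9 days as Sox10 and Gpr17 were. The median ratio of the 14 genes was -0.94 on day 0 and 4.93 on day 14.

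**Figure D4:**
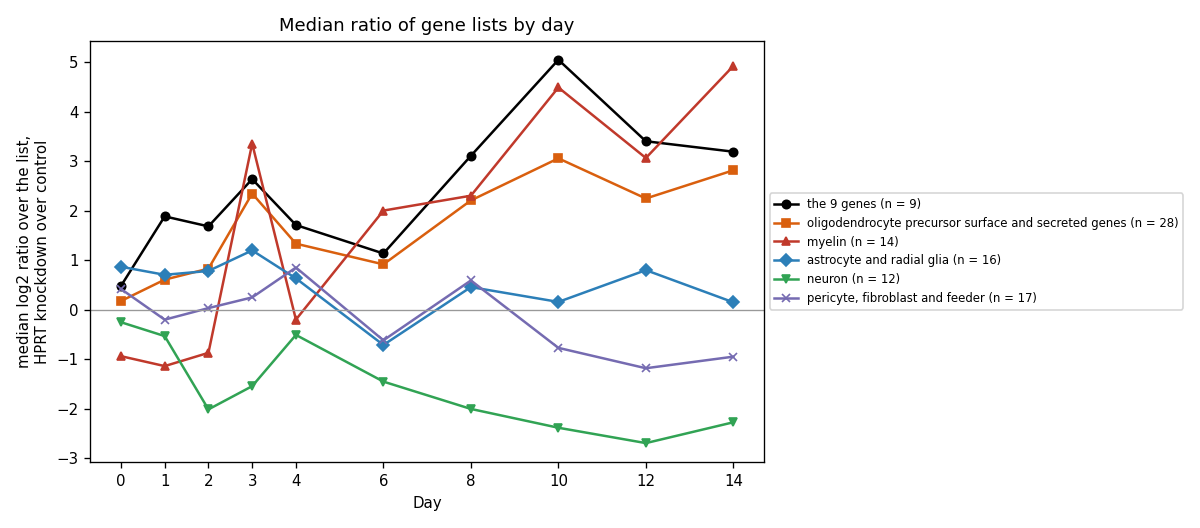
Median log2 ratio of HPRT knockdown over control over the genes of a list (vertical axis) by day (horizontal axis) for the 9 genes and 5 marker lists, with the number of genes of each list that passed the level filter. The median of the 9 genes is above 0 on every day and highest at 5.05 on day 10, the myelin median is at 3.36 on day 3 between negative values on days 2 and 4, and the neuron median is below 0 on every day.

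Because most of the 9 genes are used by other cells too, markers of those cells were examined in the same fit. Of 16 astrocyte and radial glia genes 10 were higher and 3 lower, with a median mean ratio of 0.70: S100b was at 3.63 ± 3.22, Gfap at 1.34 ± 1.01 and Pax6 at -1.36 ± 0.74. Of 12 neuronal genes 0 were higher and 8 lower, with Nefl at -2.85 ± 1.301, Ina at -2.79 ± 1.37 and Stmn2 at -2.01 ± 1.003, and the median ratio over the list went from -0.25 on day 0 to -2.27 on day 14. Of 13 markers of pluripotent cells 12 were lower and 1 (Tbx3) higher, with Pou5f1 at -2.63 ± 2.14. These lists thus also differed between the lines, and their part in the ratios of the 9 genes was not tested. Some genes stand in more than 1 list, such as Cnp and Ugt8a in the precursor and myelin lists.

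Lists of ventral, mesenchymal and neural crest cells were examined as well. Of all genes tested 26.2% were called higher and 26.3% lower. Of 11 ventral spinal and hindbrain genes 3 were higher and 4 lower, with Foxa2 at 1.24 ± 0.93 and Neurog2 at -1.56 ± 1.62. Nkx6-1, which shares the progenitor domain of Olig2, was not called at 0.93 ± 1.54 (limma adjusted p = 0.114). Of 17 pericyte, fibroblast and feeder genes, cells that also express Pdgfra or Cspg4, 0 were higher and 3 lower, with a range of mean ratios from -2.23 (Abcc9) to 0.74. The median ratio of these 17 genes was 0.42 on day 0, between -0.20 and 0.25 on days 1 to 3, and 0.85 on day 4. It was -0.62 on day 6 and 0.59 on day 8. On days 0 and 4, 6 of them were at least 2-fold higher, and 0 and 1 at least 2-fold lower. On day 8, 3 were higher and 3 lower by that measure. The median was -0.77, -1.18 and -0.95 on days 10, 12 and 14, when 7, 10 and 8 of them were at least 2-fold lower and 0 at least 2-fold higher. The part of such cells in the ratios of Pdgfra and Cspg4 was not tested. The defining markers Pdgfrb at 0.49 ± 0.74 and Col1a1 at 0.18 ± 1.08 were not called (adjusted p = 0.0921 and 0.671), and Rgs5 was under the filter. Of 14 neural crest and Schwann cell genes 3 were higher and 2 lower, with Foxd3 not called at -0.49 ± 1.78 (adjusted p = 0.465). The ratio rose with day for 3 of the 14 and fell for 1, against 7.43% and 6.61% of all genes. Foxd3 was among the 3, at 0.29 per day (limma adjusted p = 0.0199). Its ratio was -1.61 on day 0 and 2.33 on day 14. The part of such cells in the ratios of Sox10 was not tested.

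Of 12 endoderm genes 2 were higher and 1 lower (Sox17, also among the regulators above), and of 7 endothelial genes 1 was higher and 3 lower. Of 8 microglia markers 2 passed the filter, of which Tmem119 was higher and Cd68 was not called. Aif1 and Csf1r were under the filter, and Cx3cr1 was listed at 0 in every library.

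The genes most like Olig2 over the 20 libraries, by Pearson correlation of joined log2 levels, were Dbi (r = 0.979), Olig1 (r = 0.959) and Kcnj10 (r = 0.957). Within the 10 control libraries Olig1 followed Olig2 with r = 0.995 and within the 10 knockdown libraries with r = 0.736. The genes most like Sox10 included 9630013A20Rik (r = 0.967) and Gjc3 (r = 0.958), and Gpr17 stood at rank 8 of all genes (r = 0.947). The genes most like Pdgfra were Reps2 (r = 0.954), Fam19a1 (r = 0.951) and Igsf10 (r = 0.940). Libraries of a line share their source and the time trend, so that these correlations are descriptions and carry no p.

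Sox10 and Pdgfra were related in opposite directions in the lines. Over the 10 control libraries r was -0.747, and over the 10 knockdown libraries it was 0.941. Gpr17 and Pdgfra gave -0.690 in the control and 0.937 in the knockdown. The difference between these correlations was not tested. In the control line Pdgfra rose with day while Sox10 and Gpr17 fell, and in the knockdown line all 3 rose.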

How the data were processed

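RNA-seq of 10 control and 10 HPRT knockdown libraries was used, grouped by the labels. Per the labels and methods, libraries were made with a TruSeq kit, sequenced for 50 cycles with 5 libraries in each of 4 lanes, aligned to mm9 in CASAVA 1.8.2 and counted in Avadis NGS with DESeq normalization. Which lane held which library is not stated in those sources, and lanes were not examined. What the authors deposited are 28 tables of log2 normalized counts, each table normalized separately and centred on the mean of its 2 libraries. Genes at or below 1 normalized count entered as 0, which understates ratios of low genes.

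Each day's ratio comes from that day's own table, and levels were joined across the 27 tables that agreed within 1e-06 for these genes; the control table of days 3 and 4 did not (differences up to 0.190) and was not used for joined levels, a choice made after seeing the data. It did enter the control step of those days and, by adding up the steps of a line, the control slopes. Joined levels use 1 scaling per library, so their ratios can differ slightly from those of a day's own table. Agreement was looser for some listed genes, with differences from the joined levels of up to 0.225 for Enpp6 and 0.0706 for Sox17. A gene passed the level filter with a typical normalized count of at least 16 (13608 of 19041 genes with reads), read from the single-precision rounding of the deposited values. The typical count was taken over both lines, so a gene could pass through the line where it was higher. Reads of 6 members were recovered as whole bases of 49-base reads, also after seeing the data. Of 120 values 27 were whole reads, with 1 of 20 each for Olig2 and Pdgfra. Values lay up to 0.429 bases from a whole base for Olig2 and up to 0.317 for Olig1, so their recovery was less exact. Exon lengths came from the NCBIM37 annotation, which may differ from that used for counting.

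Ratios and slopes were tested with limma 3.58.1 in R 4.3.3, with Benjamini-Hochberg adjustment over all genes that passed and a threshold of 0.05. Neighbouring members were compared by exact sign-flip tests over 9 days. Scripts were tested on simulated data. Libraries of the same day formed a pair, as in the study; their deviations from the group means correlated with r between 0.140 and 0.416 on 8 days and -0.0113 on day 0. The p-values measure the spread between days of lines that were made once. Single days and steps had no test, and called there means at least 2-fold. Named are the members, Hprt, at most 3 called genes with the highest and 3 with the lowest ratio of each list, the defining markers of each list, and the 3 genes most like Olig2, Sox10 and Pdgfra. Jag1 is named beside the other Notch ligands of its list. The members, lists and tests were chosen with earlier results of these data known. Upstream sequences are from RefSeq (GRCm38.p6), and read strand was not used. Myrf, Map2, Tfap2a and Tfap2b, also listed, were not analysed here under these symbols. Some genes that the rule for named genes selects are not reported here.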

Additional observations from a re-analysis of the deposited data

Results flagged for a closer look

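The time trend differed between the lines for 4 of the 9 genes, by the limma test of the slope of the ratio on day (HPRT knockdown minus control, log2 units per day). The difference in slope was 0.59 for Sox10 (adjusted p = 0.00813), 0.58 for Gpr17 (adjusted p = 0.00726), 0.33 for Nkx2-2 (adjusted p = 0.00957) and 0.24 for Olig2 (adjusted p = 0.0198). For Sox10 and Gpr17 the lines moved in opposite directions, down in the control and up in the knockdown, where the rise of each was not called without day 2, day 12 or day 14 (adjusted p between 0.0514 and 0.0922). For Nkx2-2 the knockdown line rose, and for Olig2 the control line fell. No library of these genes stood apart within its line by Dixon's test over 10 days, which flags about 1 group in 20 by chance. That test looks only at the highest and lowest library of a line. It could therefore not flag day 3 of the knockdown line, whose levels lay inside the range of the other days.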

How the results depend on the processing

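The count of genes called different between the lines was 7141 in the reported test and stayed within 1.5 times of it under every alternative run, from 6254 to 7265 with 1 day left out. Taken without the pairing of days (no replicate block) it was 5720, and of the 9 genes only Pdgfra lost its call. The 6 genes with the same sign on 9 days (Olig1, Olig2, Sox8, Nkx2-2, Nkx6-2 and Cspg4) kept their call under each alternative that could be run for them. Nkx2-2 and Nkx6-2 do not pass a filter of 256 counts and had no value there. Sox8 and Cspg4 passed it on a count taken over both lines, with control medians of 194 and 141 normalised reads. The mean ratio of Gpr17 lost its call in 7 of 16 alternatives and that of Pdgfra in 2 of 16, with no change of sign. Counts for time trends depended more on the settings. For the slope of the ratio the count was 1911 in the reported test, 605 to 1657 with 1 day left out and 1066 with day 6 kept. For the control slope it was 5933, 4621 to 6267 with 1 day left out and 3929 on log2(day + 1). For the knockdown slope it was 1786, 171 (without day 14) to 2959 (without day 0) with 1 day left out, and 127 on log2(day + 1), where Sox10, Gpr17 and Pdgfra also lost their rise (adjusted p between 0.103 and 0.120), as Pdgfra did in the control (0.141). For late minus early days it was 767, 85 to 1593 with 1 day left out, 493 with no filter and 325 with days 1 to 4 as the early days. Olig2 and Nkx2-2 lost that call with no filter, with days 1 to 4 as the early days and with day 6 among the late days (adjusted p between 0.0586 and 0.209). Slopes of the ratio gained a call for Olig1 on log2(day + 1) (adjusted p = 0.0411) and for Sox8 with the stricter filter (0.0444), without day 3 (0.0486) and without day 8 (0.0308), and late minus early for Cspg4 with that filter (0.0315) and with all tables joined (0.0493). No neighbouring pair was called under any setting (0 to 0). The cause of these shifts was not tested, other than that fewer days were fitted. Among the 6 genes with recovered reads depth was lowest for Cspg4, at 38 reads in 1 library. Nkx2-2 and Nkx6-2, with lower typical counts, had no recovered reads.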
